A study of Mus musculus with 6 samples.

Results

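The genes described here are 35 genes of glycolysis and of the response to low oxygen, taken by name from the 17369 gene columns of a table of single mouse T helper 9 (Th9) cells. The genes were listed by function, with earlier results of these data known. Of the 35 genes, 33 had a mean of at least 5 parts per 1000000 (ppm) of the corrected counts and were tested between genotypes, and P4ha2 and Adm fell below that minimum. The cells came from Cblb-/- mice, in which CBL-B, an E3 ligase known to restrain T cells, is inactivated, and from wild-type controls, with 3 samples of each genotype. Naive CD4 T cells of the spleen of both genotypes had been cultured for 48 h with human TGFβ at 3 ng/ml, IL-4 at 20 ng/ml and an antibody against IFNγ at 20 µg/ml, selected once more for CD4 with magnetic beads and sequenced by 10x Genomics 3' chemistry. The labels give no age or strain for the mice, do not say which exons of Cblb were removed, and do not tie the samples of a genotype to separate mice or cultures. Every p-value therefore rests on the spread between samples that may be technical repeats.

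Glycolysis breaks glucose down to pyruvate in a chain of enzymes, and lactate dehydrogenase turns the pyruvate into lactate, which leaves the cell through monocarboxylate transporters. Activated T cells run this pathway at a high rate even when oxygen is present. The transcription factor HIF-1 joins a stable partner, ARNT, to the subunit HIF-1α, which prolyl hydroxylases mark for destruction when oxygen is plentiful. HIF-1 switches on most genes of glycolysis together with genes for mitophagy, collagen hydroxylation, blood vessel growth and the brake on mTORC1, and T cell receptor and mTOR signals can raise HIF-1α without a lack of oxygen.

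The 6 libraries are called D, E and F (knockout) and A, B and C (wild type) here, because the table names them by sequencing index only. They held 14503 knockout and 12755 wild-type cells, 3423 to 5666 a library, with median raw depths of 35573 UMIs (unique molecular identifiers, single counted transcripts) in E to 39628 in D and median mitochondrial shares of 4.46% in E to 5.03% in D. Pairs of libraries shared 0 to 10 cell barcodes. Cblb itself, the check of the labels, was 18.4, 15.0 and 18.0 ppm in D, E and F, against 32.6, 31.1 and 31.0 ppm in A, B and C, (log2 -0.85, limma, adjusted p = 0.000816), and 3' tags outside a deleted exon would still be counted. All 6 T cell markers listed were detected, with a sum of 1778 to 1953 ppm in knockout and 2004 to 2061 ppm in wild-type libraries. Both CD8 markers summed to 10.2 to 11.1 ppm in knockout and 5.68 to 7.20 ppm in wild-type libraries, and 4 B cell markers to 5.18 to 9.04 ppm in knockout and 2.90 to 3.51 ppm in wild-type libraries. None of the listed myeloid, dendritic, NK, mast cell or erythroid markers found in the table was at 0, but each of these lists summed to less than 4 ppm in every library. The part of these other cells in the results below was not tested, and for sums over all cells fewer cells of a type and less RNA per cell cannot be told apart.

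The promoters of 4 genes on which the results turn show the letters by which HIF-1 is known to recognise its targets. The core of the hypoxia response element is known as ACGTG or GCGTG, and these letters were searched on both strands from 250 bases before to 50 bases after each annotated start (RefSeq, GRCm38.p6). An ACGTG on one strand can overlap one on the other, as in CACGTG. Hk2 encodes the first enzyme of glycolysis, Ddit4 an inhibitor of mTORC1, Bnip3 a mitophagy receptor and Slc16a3 the lactate exporter MCT4. The windows lie at chr6:82774405-82774704 (minus strand) for Hk2, chr10:59951721-59952020 (minus strand) for Ddit4, chr7:138909457-138909756 (minus strand) for Bnip3 and chr11:120948817-120949116 (plus strand) for Slc16a3. They are written 5′ to 3′ along the gene, and capitals mark both letter strings on either strand.
Hk2: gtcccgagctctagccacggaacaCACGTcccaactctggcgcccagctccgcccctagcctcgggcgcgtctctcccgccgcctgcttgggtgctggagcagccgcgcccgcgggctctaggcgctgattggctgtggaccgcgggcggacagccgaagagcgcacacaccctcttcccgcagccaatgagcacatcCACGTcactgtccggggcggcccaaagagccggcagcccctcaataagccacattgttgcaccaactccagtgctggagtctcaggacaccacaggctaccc
Ddit4: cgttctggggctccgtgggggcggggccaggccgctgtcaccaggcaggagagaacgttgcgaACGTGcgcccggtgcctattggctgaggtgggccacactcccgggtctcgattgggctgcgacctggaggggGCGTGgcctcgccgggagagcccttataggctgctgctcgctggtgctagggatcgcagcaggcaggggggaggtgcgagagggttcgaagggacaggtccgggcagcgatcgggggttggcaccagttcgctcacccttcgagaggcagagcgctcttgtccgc
Bnip3: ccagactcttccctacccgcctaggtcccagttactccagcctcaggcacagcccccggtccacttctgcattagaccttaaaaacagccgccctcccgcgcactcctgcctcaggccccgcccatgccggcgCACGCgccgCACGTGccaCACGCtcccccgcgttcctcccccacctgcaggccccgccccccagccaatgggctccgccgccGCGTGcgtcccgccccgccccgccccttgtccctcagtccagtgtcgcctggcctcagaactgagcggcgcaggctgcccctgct
Slc16a3: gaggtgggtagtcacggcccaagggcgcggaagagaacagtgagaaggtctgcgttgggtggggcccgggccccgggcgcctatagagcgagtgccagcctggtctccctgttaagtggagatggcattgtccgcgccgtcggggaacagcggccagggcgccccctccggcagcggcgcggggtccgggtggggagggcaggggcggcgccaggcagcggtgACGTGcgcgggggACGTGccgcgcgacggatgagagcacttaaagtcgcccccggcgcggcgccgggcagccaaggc
The Hk2 window holds ACGTG 2 times, 226 and 52 bases before the start, both on the opposite strand. Ddit4 has ACGTG 187 bases and GCGTG 115 bases before its start, and in Slc16a3 ACGTG lies 27 and 14 bases before the start. Bnip3 has both letter strings, with a CACGTG that counts once on each strand. A window was found for 31 of the 35 genes, all but Slc2a3, Bnip3l, Ero1l and Ndrg1. ACGTG was present in at least 1 window of 23 of these 31 genes (74.2%), against 21.8% of 27025 genes in the promoter table and 31.3% of the 6758 tested genes with a window. GCGTG was present in 21 (67.7%), against 35.2% and 59.5%, and either string in 29 (93.5%), against 46.7% and 71.1%. The exceptions were Gpi1 and Tpi1. Genes with several starts have more windows, and a match describes these letters and no bound site.

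The comparison of genotypes asked which of these genes differed between Cblb-/- and wild-type Th9 cultures. Over all cells 6 of the 33 tested genes rose in knockout libraries and 0 fell, as judged by limma on library sums at a Benjamini-Hochberg adjusted p under 0.05 over all genes. They were Hk2, Hif1a, Ddit4, Ero1l, Ndrg1 and Vegfa. Of all 8475 genes tested 11% rose and 13.4% fell. At an unadjusted p under 0.05 in either direction there were 8 of the 33 genes (24.2%), a smaller share than the 39.2% of all genes tested. Bnip3l and Pfkp joined the 6, and all 8 were higher in knockout libraries. The median log2 difference (knockout minus wild type) was 0.16 over the 33 genes and -0.01 over all genes, and it was above 0 for 28 of the 33.

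The pattern by library was sharper than the pattern by genotype. Library D lay above all 3 wild-type libraries for 28 of the 33 genes (40% of all genes did so) and library F for 30 (45.6%). Library E lay above all 3 for just 6 of the 33 genes (28.6%), the same 6 that were called, and below all 3 for 22 (53.2%). Library D lay below every wild-type library for 0 of the 33 genes (42.5%) and F for 1, Slc16a1 (35.2%). All 3 knockout libraries lay above all 3 wild-type libraries for 6 of the 33 genes (19.7%) and below them for 0 (25.6%).

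**Figure D1:**
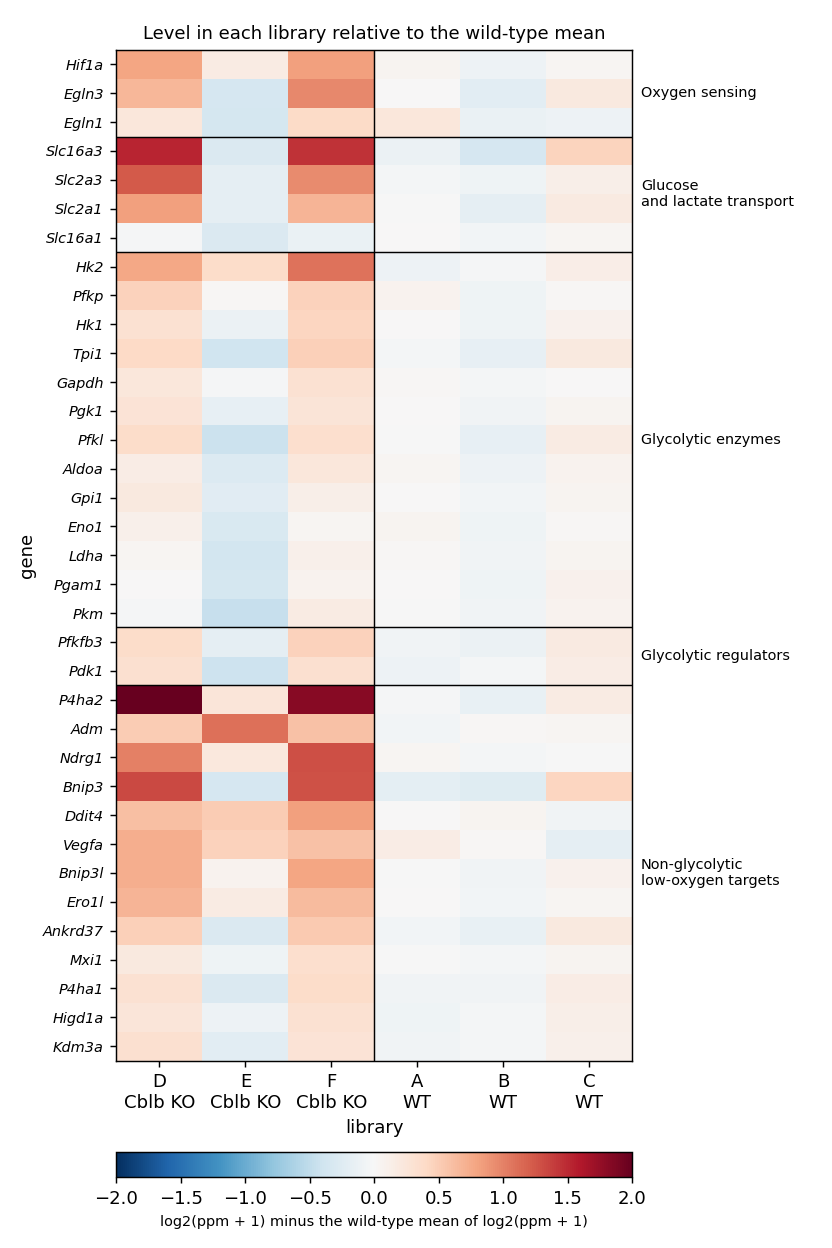
Each row is 1 of the 35 genes, grouped by role and sorted by fold within a role, and each column a library, knockout (D, E, F) left of wild type (A, B, C). Colour gives log2(ppm + 1) minus the wild-type mean, clipped at the ends of its scale; D and F are red in most rows, while E is white or pale blue in most and reddest for Adm, with paler red for Hk2, Ddit4 and Vegfa.

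Oxygen sensing was represented by Hif1a, which encodes HIF-1α, and by Egln1 and Egln3, which encode prolyl hydroxylases that act on it. Hif1a (ENSMUSG00000021109, chr12:73901375-73947530, plus strand, mm10) was 98.8, 63.9 and 101 ppm in D, E and F, against 59.6, 53.1 and 58.8 ppm in A, B and C. The groups did not overlap, and E was the knockout library nearest to wild type. Hif1a averaged 88.0 ± 20.9 ppm in knockout and 57.2 ± 3.57 ppm in wild-type libraries (SD, n = 3 each; log2 0.59, SE 0.16, limma, adjusted p = 0.0338). The call was lost without A, B, C, D or F (limma, adjusted p = 0.0863, 0.109, 0.0967, 0.0967 and 0.0865) and in cells within 20% of the median raw depth (limma, adjusted p = 0.0517). Egln3, itself a HIF-1 target, was 24.4, 11.7 and 30.4 ppm in D, E and F, against 15.2, 12.9 and 17.5 ppm in A, B and C. Libraries D and F were above and E below all wild-type libraries, and the difference did not pass the test (log2 0.43, SE 0.30, limma, adjusted p = 0.322). Egln1 differed by 0.08 on the log2 scale (SE 0.18, limma, adjusted p = 0.757).

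Among the transporters, the 4 genes had a median log2 difference of 0.55, and 0 of them passed the test (limma; 0 at an unadjusted p under 0.05, against 39.2% of all genes). Slc16a3 was 89.2, 24.6 and 84.6 ppm in D, E and F, against 28.0, 23.9 and 41.6 ppm in A, B and C. D and F were far above the wild-type range and E stood inside it, so that the knockout mean of 66.1 ± 36 ppm had an SD larger than the difference from the wild-type mean of 31.2 ± 9.26 ppm (n = 3 each; limma, adjusted p = 0.187). Slc2a1, the gene of the glucose transporter GLUT1, was 59.6, 29.3 and 53.7 ppm in D, E and F, against 33.2, 29.3 and 38.1 ppm in A, B and C (limma, adjusted p = 0.213). Slc2a3, the gene of the high-affinity transporter GLUT3, was 20.0, 6.90 and 16.3 ppm in D, E and F, against 7.72, 7.46 and 8.69 ppm in A, B and C (limma, adjusted p = 0.157). All 3 showed the same order, with D and F above and E inside or below the wild-type range. Slc16a1, which encodes the lactate transporter MCT1, ran the other way, at 45.9, 38.1 and 42.7 ppm in D, E and F, against 46.9, 45.1 and 48.0 ppm in A, B and C. Its log2 difference was -0.15 (SE 0.07, limma, adjusted p = 0.159), and with equal weight for each deposited cluster it was -0.20 and passed (limma, adjusted p = 0.0474).

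Of the 13 glycolytic enzyme genes 1 rose and 0 fell (limma, against 11% and 13.4% of all genes; 2, or 15.4%, at an unadjusted p under 0.05, against 39.2%), and their median log2 difference was 0.09. The gene that rose was Hk2 (ENSMUSG00000000628, chr6:82725025-82774454, minus strand), at 68.5, 51.8 and 85.2 ppm in D, E and F, against 36.9, 39.2 and 43.7 ppm in A, B and C. Every knockout library lay above every wild-type library. It averaged 68.5 ± 16.7 ppm in knockout and 39.9 ± 3.47 ppm in wild-type libraries, 1.72-fold higher (SD, n = 3 each; log2 0.74, SE 0.16, limma, adjusted p = 0.0149). Without A or B the call was lost (limma, adjusted p = 0.0624 and 0.0532), and the log2 difference without any 1 library lay between 0.57 and 0.92. The other hexokinase gene, Hk1, differed by 0.21 on the log2 scale (SE 0.13, limma, adjusted p = 0.268), and the phosphofructokinase gene Pfkp by 0.31 (SE 0.12, limma, adjusted p = 0.0838).

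For the abundant enzyme genes the means of the genotypes lay close together, while the knockout libraries differed among themselves. Of the 13 enzyme genes, E lay below every wild-type library for 10 (53.2% of all genes). D lay above every wild-type library for 10 (40%) and F for 11 (45.6%). Gapdh was 3709, 3132 and 3919 ppm in D, E and F, against 3247, 3096 and 3215 ppm in A, B and C (log2 0.16, SE 0.08, limma, adjusted p = 0.163). Ldha, the gene of the lactate dehydrogenase A subunit, was 2048, 1544 and 2129 ppm in D, E and F, against 2016, 1887 and 2050 ppm in A, B and C (log2 -0.07, SE 0.11, limma, adjusted p = 0.672). E had the lowest Ldha value of the 6 libraries. Pkm, which encodes pyruvate kinase M, was 1023, 754 and 1166 ppm in D, E and F, against 1033, 985 and 1093 ppm in A, B and C, and Pgk1, which encodes phosphoglycerate kinase, was 933, 691 and 930 ppm in D, E and F, against 782, 735 and 808 ppm in A, B and C (limma, adjusted p = 0.624 and 0.451). For Pkm the groups overlapped, and for Pgk1 E lay below and D and F above the wild-type range. The log2 differences of the other 6 enzyme genes (Gpi1, Pfkl, Aldoa, Tpi1, Pgam1 and Eno1) lay between -0.09 for Pgam1 and 0.16 for Tpi1. Tpi1 was 758, 436 and 795 ppm in D, E and F, against 561, 514 and 655 ppm in A, B and C. Several of the enzyme genes have processed pseudogenes, and the sources used here do not say how reads that match both were treated. The regulator gene Pfkfb3, whose enzyme makes the activator of phosphofructokinase, had a log2 difference of 0.22 (limma, adjusted p = 0.359). Pdk1, whose kinase restrains the entry of pyruvate into the citrate cycle, had one of 0.07 (limma, adjusted p = 0.805).

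Among the 13 low-oxygen target genes outside glycolysis 11 were tested, and 4 of them rose and 0 fell (limma; 5, or 45.5%, at an unadjusted p under 0.05, against 39.2% of all genes; median log2 difference 0.49). Ddit4 (ENSMUSG00000020108, chr10:59949669-59951834, minus strand), which encodes REDD1 and answers to several stresses beside low oxygen, was 36.5, 34.2 and 42.6 ppm in D, E and F, against 23.9, 24.9 and 22.6 ppm in A, B and C. Its knockout mean was 37.8 ± 4.34 ppm and its wild-type mean 23.8 ± 1.14 ppm (SD, n = 3 each; log2 0.64, SE 0.08, limma, adjusted p = 0.00259). Vegfa (ENSMUSG00000023951, chr17:46016993-46032369, minus strand), the gene of the vascular growth factor VEGF-A, was 19.1, 15.9 and 17.4 ppm in D, E and F, against 12.6, 11.5 and 9.75 ppm in A, B and C (log2 0.59, SE 0.10, limma, adjusted p = 0.00672). For both genes all 3 knockout libraries stood above wild type and E was not far from D and F. These were the 2 genes among the 33 that passed the test whichever library was left out, with log2 differences of 0.55 to 0.71 for Ddit4 and 0.50 to 0.67 for Vegfa.

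Ero1l and Ndrg1 rose with a wider spread. Ero1l (ENSMUSG00000021831, chr14:45283087-45318771, minus strand), whose product ERO1α forms disulfide bonds in the endoplasmic reticulum, was 101, 69.9 and 97.2 ppm in D, E and F, against 62.9, 59.8 and 64.2 ppm in A, B and C (log2 0.49, SE 0.13, limma, adjusted p = 0.0257). Ndrg1 (ENSMUSG00000005125, chr15:66929318-66969640, minus strand), a gene induced by stress and low oxygen, was 11.6, 6.22 and 14.4 ppm in D, E and F, against 5.44, 5.11 and 5.26 ppm in A, B and C (log2 0.84, SE 0.24, limma, adjusted p = 0.0401). The groups did not overlap for either gene, but E was close to wild type. Both calls were lost without A, B, C, D or F (limma, adjusted p of 0.0692 to 0.0858 for Ero1l and 0.0831 to 0.118 for Ndrg1).

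The other tested targets did not pass. The mitophagy receptor genes Bnip3 and Bnip3l followed the order of Slc16a3. Bnip3 was 35.8, 10.7 and 34.7 ppm in D, E and F, against 11.9, 11.5 and 18.9 ppm in A, B and C (log2 0.75, SE 0.42, limma, adjusted p = 0.224). Bnip3l was 116, 73.1 and 121 ppm in D, E and F, against 68.9, 66.1 and 73.6 ppm in A, B and C (log2 0.53, SE 0.17, limma, adjusted p = 0.0567). E was the lowest of the 6 libraries for Bnip3 and lay inside the wild-type range for Bnip3l, whose difference passed with median-of-ratios scaling and in cells under the median mitochondrial share (limma, adjusted p = 0.0427 in both). Log2 differences of the remaining 5 tested targets lay between 0.13 for P4ha1, a collagen prolyl hydroxylase gene, and 0.24 for Ankrd37. P4ha2, a gene of the same hydroxylase family, and Adm, which encodes the peptide adrenomedullin, were too low for the main test. P4ha2 was 6.62, 1.22 and 5.64 ppm in D, E and F, against 0.86, 0.70 and 1.10 ppm in A, B and C. Adm was 1.61, 2.95 and 1.76 ppm in D, E and F, against 0.77, 0.86 and 0.88 ppm in A, B and C, with its highest value in E, the library with the lowest knockout value for most of the other genes. With a minimum mean of 1 ppm both were tested and called (log2 1.36 for P4ha2 and 0.73 for Adm, limma, adjusted p = 0.0482 and 0.0127), and a filter on low values let them pass through the group where they were high.

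**Figure D2:**
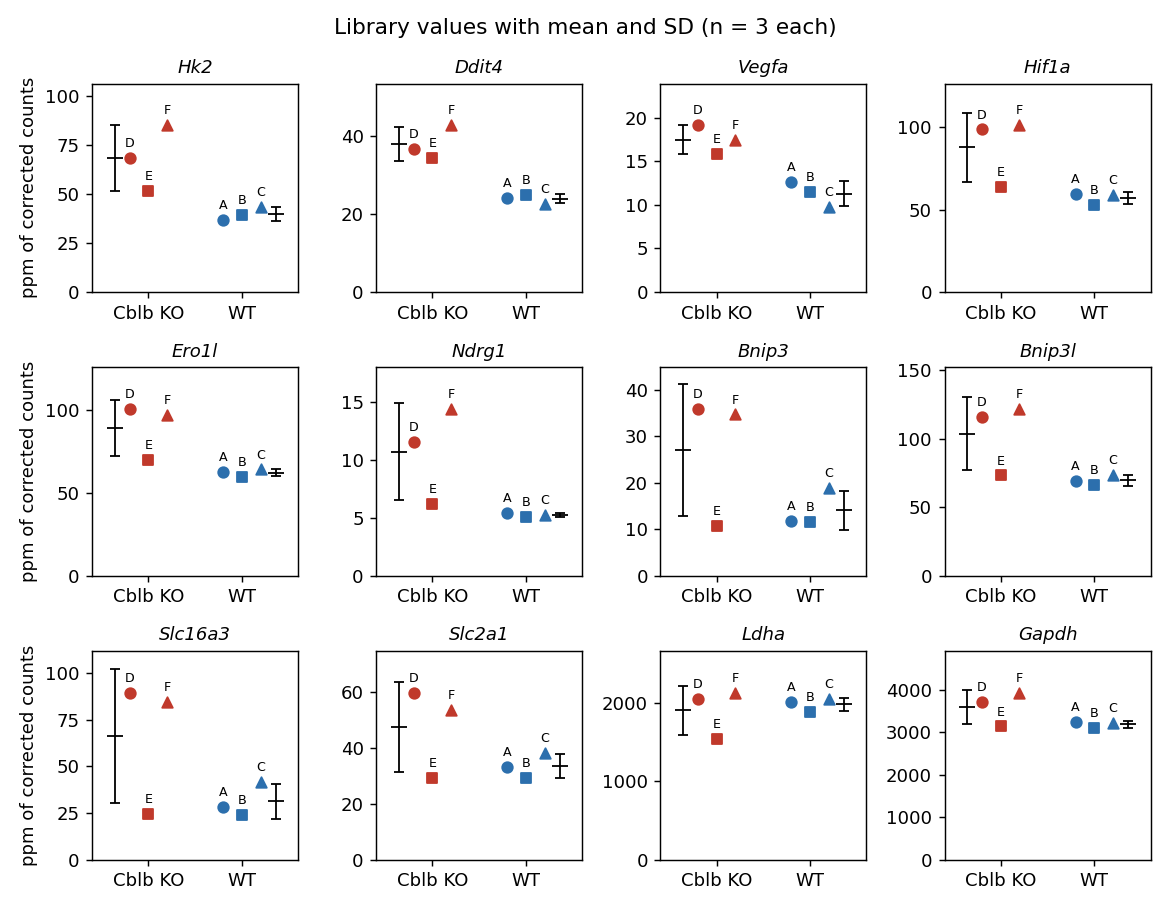
Each panel shows 1 gene, with its ppm on the vertical axis from 0, the 3 knockout libraries (D, E, F, red) on the left, the 3 wild-type libraries (A, B, C, blue) on the right, and mean and SD (n = 3 each) as bars beside the points. Ddit4 and Vegfa separate the genotypes with all 3 knockout libraries, while E drops to the wild-type level for Bnip3, Slc16a3 and Slc2a1 and below it for Ldha.

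Library E decided most of the counts. Without it 27 of the 33 genes rose (limma, against 20.6% of 8481 genes tested without it), and without A, B, C, D or F it was 2, 2, 3, 3 and 3 genes, against 5.41%, 5.21%, 4.67%, 7.99% and 8.6% of all genes. Without E the log2 difference was 1.49 for Slc16a3, 1.30 for Bnip3, 1.09 for Slc2a3, 0.81 for Egln3, 0.76 for Bnip3l and 0.75 for Slc2a1. It was smaller for abundant enzymes, at 0.26 for Gapdh and 0.27 for Pgk1. E was also the library with the lowest median depth and mitochondrial share. In cells within 20% of the median depth 5 of the 33 genes rose (limma, 11.1% of all genes), and in cells under the median mitochondrial share 7 did (9.41%).

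The next question was whether the differences came from all cells or from some. For each cell the corrected counts of the 13 low-oxygen targets outside glycolysis were summed. The median sum was 27, 22 and 28 in D, E and F, against 22, 23 and 24 in A, B and C. The typical sum was thus somewhat higher in D and F and not in E. The 75th percentile was 38, 27 and 38 in D, E and F, against 27, 27 and 30 in A, B and C. The upper end differed far more between libraries: the 95th percentile was 79, 39.8 and 82 in D, E and F, against 39, 38 and 49 in A, B and C. Cells with a sum above 58, which are 1316 of all 27258 cells, made up 12.1%, 1.45% and 11.2% of D, E and F, against 1.0%, 1.23% and 2.70% of A, B and C. E lay inside the wild-type range. The median raw depth of these cells was 36466 to 39554 UMIs in knockout and 36396 to 39632 UMIs in wild-type libraries, against 35554 to 39811 UMIs for the other knockout cells and 37608 to 38760 UMIs for the other wild-type cells. Median mitochondrial shares were 4.56% to 5.05% in the knockout and 4.44% to 5.15% in the wild-type cells above 58. In the other cells Higd1a alone averaged 15.5, 13.7 and 16.4 in D, E and F, against 14.1, 14.6 and 15.8 in A, B and C. The mean sum of all 13 targets there was 27.3, 23.4 and 28.8 in D, E and F, against 23.3, 23.4 and 25.3 in A, B and C. Higd1a thus made up most of the sum, whose median says little of the other targets in typical cells.

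**Figure D3:**
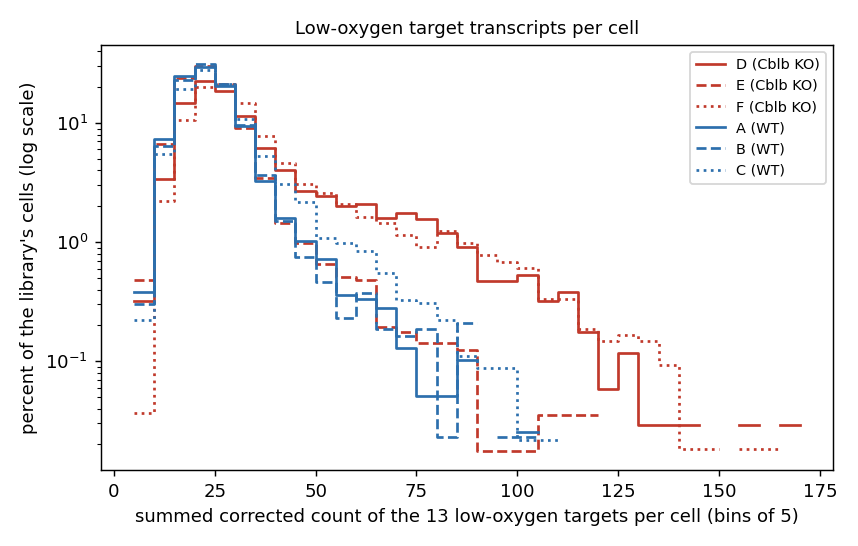
The horizontal axis gives the summed corrected count of the 13 low-oxygen targets in a cell and the vertical axis, on a log scale, the percent of a library's cells in each bin. Above about 50, D and F (solid and dotted red) stay over the others and E (dashed red) runs with A and B (solid and dashed blue), while C (dotted blue) lies between them up to about 85.

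In the cells above 58 other members of the pathway were also high, which the sum did not use. The mean of each of the 13 glycolytic enzyme genes was 1.69 to 3.33 times that of the other cells in E, and the ratios lay between 1.53 and 3.13 in every other library. Slc2a3 reached 7.64, 7.67 and 8.81 times in D, E and F, against 7.53, 11.1 and 7.99 times in A, B and C, and the exception was Slc16a1, with 0.63 to 1.01 over the 6 libraries. With these cells left out the same 6 genes were called (limma, 10.9% of all genes rose), with log2 differences of 0.67 for Hk2, 0.55 for Ndrg1, 0.53 for Ddit4, 0.52 for Vegfa, 0.51 for Hif1a and 0.33 for Ero1l. Other differences shrank, to 0.21 for Bnip3, 0.24 for Slc2a3, 0.13 for Egln3 and 0.26 for Bnip3l, and that of Slc16a3 was 0.64. The cells were chosen by some of these genes, so these values describe where the transcripts lay.

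A gene that is spread evenly would have 10% of its corrected counts in the 10% of a library's cells with the highest sum of the other low-oxygen targets. Bnip3 had 49.1% to 50.2% there in knockout and 39.6% to 45.8% in wild-type libraries, and Slc16a3 32.4% to 40.8% in knockout and 35% to 37.5% in wild-type libraries. Both were bundled into the same cells in either genotype. Egln3 had 35.4%, 19.9% and 33.7% in D, E and F, against 18.1%, 18.0% and 21.6% in A, B and C, and Bnip3l 31.9%, 21.0% and 31.9% in D, E and F, against 20.1%, 19.2% and 25% in A, B and C. For these genes the bundling itself was stronger in D and F than in the other 4 libraries. Hif1a, at 12.7% to 17.0% in knockout and 11.0% to 12.3% in wild-type libraries, and Gapdh, at 12.8% to 16.0% in knockout and 12.2% to 13.4% in wild-type libraries, were spread more evenly. Slc16a1 had 9.14% to 10.1% in knockout and 9.04% to 9.75% in wild-type libraries.

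**Figure D4:**
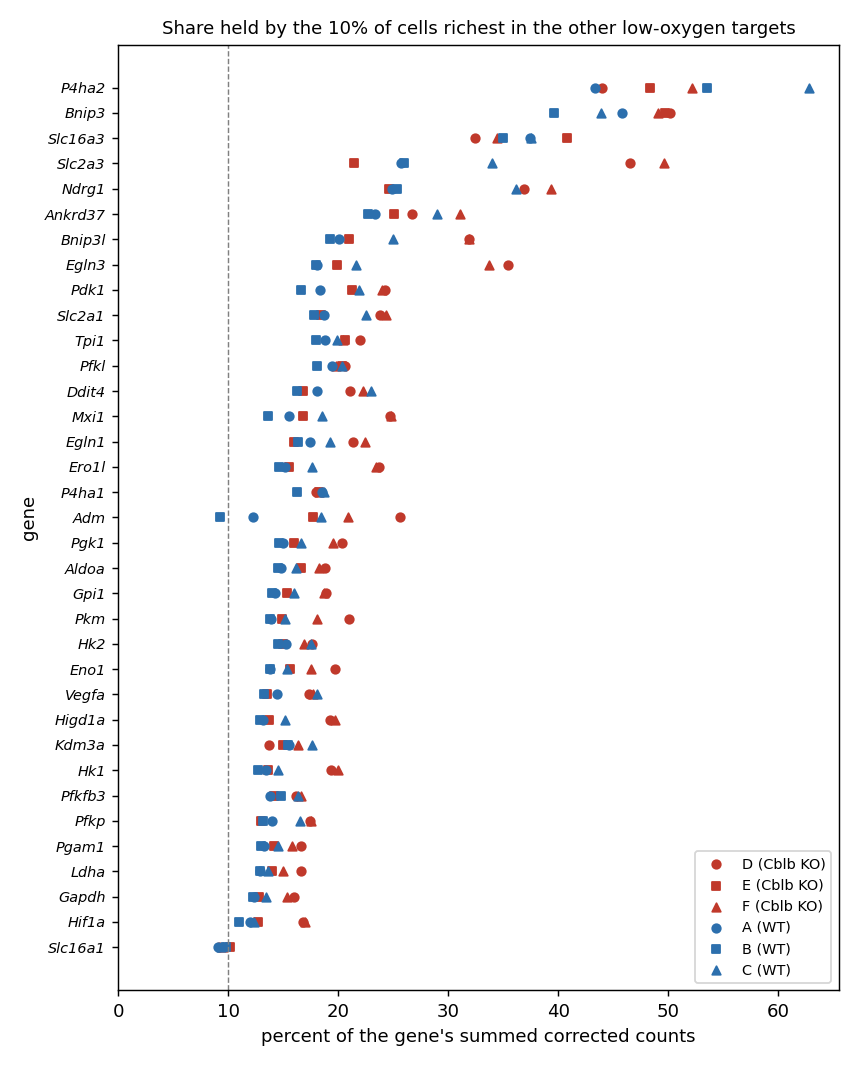
For each of the 35 genes (rows) the points give the percent of its summed corrected counts found in the 10% of a library's cells richest in the other low-oxygen targets, knockout libraries in red and wild-type libraries in blue. The dashed line marks 10%, the value for an even spread; P4ha2, Bnip3 and Slc16a3 lie far to its right in all 6 libraries, and Slc16a1 lies on it.

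Cell by cell, the abundant enzyme genes moved together, and Hk1, Hk2 and Pfkp did so less. Pearson's r between log values of Pkm and Ldha over the cells of a library was 0.56 to 0.78 in knockout and 0.56 to 0.60 in wild-type libraries. This was the highest minimum of any pair of the 35 genes, and the values of a library share its cells and depth correction. With the mean of the other enzyme genes, r for Hk2 was 0.18 to 0.37 in knockout and 0.12 to 0.23 in wild-type libraries. For Hk1 it was 0.11 to 0.36 and 0.09 to 0.155, and for Pfkp 0.23 to 0.47 and 0.22 to 0.335. For Aldoa it was 0.67 to 0.84 and 0.625 to 0.70. Slc16a1 had r of -0.05 to 0.02 with the mean of the low-oxygen targets in knockout libraries and -0.04 to 0.01 in wild-type libraries, while Tpi1 had 0.48 to 0.74 in knockout and 0.45 to 0.60 in wild-type libraries. In sparse genes such as Adm a low r is not informative.

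The share of cells in which a gene reached 10 corrected counts also rises with its mean. It does not tell whether genes are high in the same cells. For Bnip3l it was 12.9%, 2.42% and 12.3% in D, E and F, against 1.90%, 1.67% and 2.92% in A, B and C. For Hif1a it was 5.0%, 0.53% and 4.91% in D, E and F, against 0.44%, 0.21% and 0.33% in A, B and C, and for Ero1l 5.84%, 0.95% and 4.90% in D, E and F, against 0.46%, 0.44% and 0.64% in A, B and C. Every knockout library exceeded every wild-type library for Hif1a and Ero1l, for which the two-sided exact permutation test gave p = 0.1, the smallest that 3 against 3 allows (Benjamini-Hochberg 0.5 over the 35 genes). Pkm, Pgk1 and Slc16a1 had the same exact permutation p with every knockout library below every wild-type library. Pkm was 99.74%, 99.28% and 99.93% in D, E and F, against 99.97%, 100% and 99.98% in A, B and C. Pgk1 was above 99% and Slc16a1 below 0.2% in every library. Bnip3l overlapped in E and had an exact permutation p of 0.2. Single cells were not assigned to cell types here, and the share of all genes whose libraries separate in this way was not computed.

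The authors had sorted the cells into clusters 0 to 6, and clusters 0 to 5 had at least 50 cells in every library. Cluster 1 held 657 of 3423, 1764 of 5666 and 949 of 5414 cells in D, E and F. In A, B and C it held 1681 of 3902, 1984 of 4301 and 2029 of 4552 cells. Values over all cells thus mix the make-up of a library with the level within clusters. Levels between clusters are a description, since the clusters were made from these genes too. Cluster 2 had the highest level of Hk2, Slc2a1, Gpi1, Aldoa, Gapdh, Eno1, Pkm, Ldha, Vegfa, Egln3, Ero1l and Ddit4 in all 6 libraries. In cluster 2 Hk2 was 91.1, 79.0 and 108 ppm in D, E and F, against 59.9, 61.6 and 68.3 ppm in A, B and C, and in cluster 4, the lowest for Hk2 in 4 of the 6 libraries, it was 52.4, 47.1 and 65.9 ppm in D, E and F, against 32.3, 39.6 and 35.5 ppm in A, B and C. The cells above 58 were found most often in cluster 0, which held 63.4% to 68.8% of them in knockout and 49.1% to 64.1% in wild-type libraries. They made up 15.9%, 2.98% and 15.3% of cluster 2 in D, E and F, against 1.75%, 2.41% and 3.76% in A, B and C. Cluster 0 was close to this, with 15.7%, 1.97% and 13.9% in D, E and F, against 2.04%, 1.91% and 4.19% in A, B and C. So was cluster 5, with 15.4%, 2.03% and 12.1% in D, E and F, against 0.36%, 1.71% and 3.50% in A, B and C. In cluster 3 cells above 58 were 4.92%, 1.1% and 13.3% in D, E and F, against 0.29%, 0.52% and 2.28% in A, B and C. Library D had just 61 cells in cluster 3, of which 3 lay above 58. In cluster 4 cells above 58 were 3.59%, 0.85% and 6.96% in D, E and F, against 1.47%, 2.68% and 5.13% in A, B and C. There D lay inside the wild-type range and E below it. In cluster 1 cells above 58 were 1.37%, 0.28% and 0.32% in D, E and F, against 0.36%, 0.66% and 1.33% in A, B and C. There D was close to C, and E and F were below all 3 wild-type libraries.

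Tested within clusters, Hk2 rose in all 6 (limma, adjusted p of 0.00421 to 0.0325), with log2 differences from 0.50 in cluster 3 to 0.83 in cluster 5, and it held in every leave-one-out fit in clusters 1, 2 and 4. The Hk2 call was lost in cluster 0 without A, B or C, in cluster 3 without A, B, C, D or F and in cluster 5 without A, B, D or F (limma, adjusted p up to 0.155). Vegfa rose in each but cluster 2, where its log2 difference was 0.25 (limma, adjusted p = 0.173), and was largest in cluster 4 at 0.88. It held in every leave-one-out fit in clusters 0 and 4, and was lost in cluster 1 without B, C or D, in cluster 3 without A, B, C or D and in cluster 5 without B or C (limma, adjusted p up to 0.131). Among the tested genes of the set, 5 rose in cluster 0 (9.06% of all genes did), 5 in cluster 1 (9.22%), 9 in cluster 2 (8.39%), 3 in cluster 3 (4.54%), 3 in cluster 4 (5.33%) and 4 in cluster 5 (4.9%). The test was limma in each. At an unadjusted p under 0.05 in either direction, the genes of the set numbered 8, 11, 13, 8, 10 and 13 in clusters 0 to 5 (24.2%, 34.4%, 39.4%, 24.2%, 30.3% and 39.4%). The shares over all genes were 37%, 33.6%, 33.7%, 23.8%, 26.9% and 24.3%, so that the set lay below them in cluster 0, near them in clusters 1 and 3 and above them in cluster 5, with smaller gaps in clusters 2 and 4. Slc16a1 fell in cluster 2 (11.7% of all genes fell there) and Eno1, the enolase gene, in cluster 4 (7.47%). In clusters 0, 1, 3 and 5, where 12.8%, 9.62%, 3.85% and 4.68% of all genes fell, 0 genes of the set did. Eno1 was 441, 382 and 482 ppm in D, E and F, against 548, 490 and 522 ppm in A, B and C in cluster 4, and its call was lost without A, B, C, D or E (limma, adjusted p up to 0.171).

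Cluster 2 had the most calls. There Bnip3l was 118, 67.0 and 116 ppm in D, E and F, against 51.6, 49.1 and 49.6 ppm in A, B and C (log2 0.94, SE 0.17, limma, adjusted p = 0.00392), and all 3 knockout libraries exceeded wild type. Slc16a3 was 103, 33.6 and 95.1 ppm in D, E and F, against 26.7, 21.0 and 39.8 ppm in A, B and C, with E inside the wild-type range (log2 1.27, SE 0.35, limma, adjusted p = 0.0281). Bnip3 was 48.4, 18.5 and 45.5 ppm in D, E and F, against 15.0, 13.8 and 17.0 ppm in A, B and C (log2 1.13, SE 0.28, limma, adjusted p = 0.0159). Hif1a (0.77), Ero1l (0.57), Ddit4 (0.55), Hk2 (0.53), Pfkp (0.34) and Ndrg1 (0.80) rose as well, as log2 differences. Slc16a1 was 46.7, 42.6 and 42.0 ppm in D, E and F, against 60.2, 53.3 and 53.8 ppm in A, B and C, and every knockout library lay below wild type (log2 -0.34, SE 0.07, limma, adjusted p = 0.00996). The calls of Bnip3l, Hif1a, Ero1l, Ddit4, Hk2 and Slc16a1 held whichever library was left out. Slc16a3 lost its call without A, B, D or F, Bnip3 without A or B, and Pfkp and Ndrg1 without A, B, C, D or F (limma, adjusted p up to 0.120, 0.0677, 0.155 and 0.144).

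**Figure D5:**
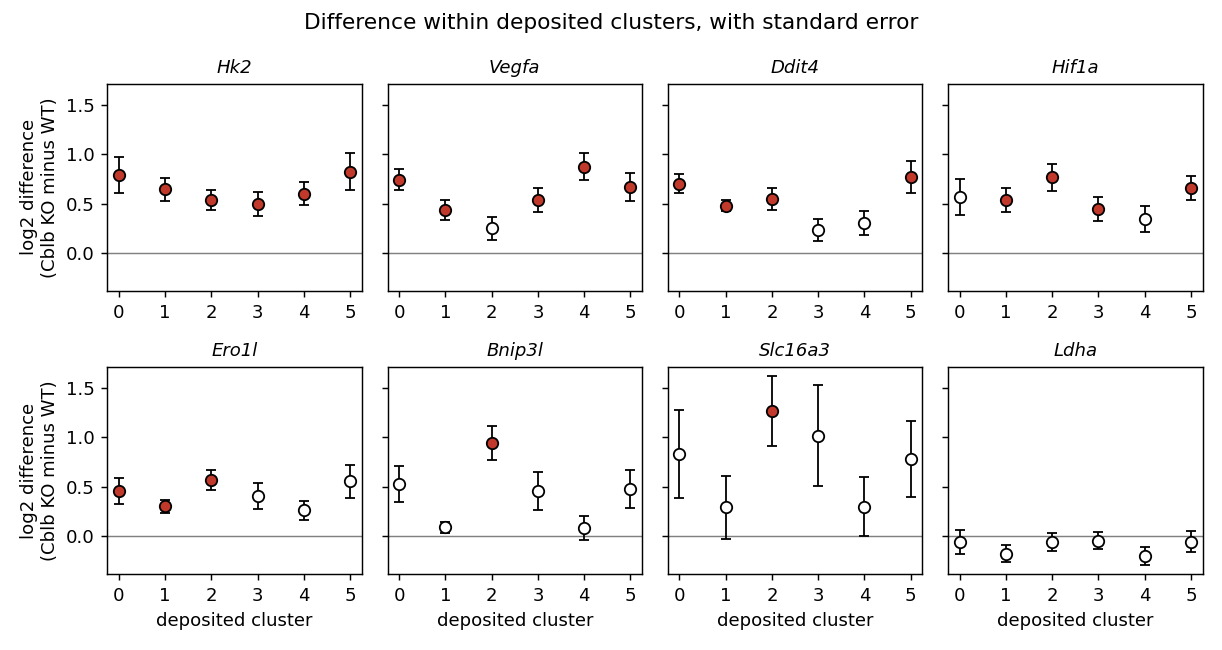
Each panel gives, for 1 gene, the log2 difference (knockout minus wild type) with its standard error in the authors' clusters 0 to 5; filled points passed limma's test at an adjusted p under 0.05 within that cluster and open points did not. Hk2 is filled in all 6 clusters, Bnip3l and Slc16a3 are filled in cluster 2 alone, and Ldha lies between -0.20 and -0.04 with no filled point.

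Whether the knockout difference itself varied between clusters was tested on each library's own difference between 1 cluster and the mean of the others. In cluster 2 it was larger than elsewhere for 2 of 32 genes of the set, Slc16a3 by 0.63 (SE 0.08) and Bnip3l by 0.62 (SE 0.08) on the log2 scale (limma, adjusted p = 0.0371 and 0.0372), and 0.308% of 8125 genes were called in that direction. A larger difference was not a higher level. In clusters 0 to 5 Bnip3l averaged 119, 69.5, 100, 85.2, 84.3 and 103.5 ppm in knockout, against 80.4, 65.3, 50.1, 59.3, 79.0 and 71.2 ppm in wild-type libraries. Slc16a3 averaged 75.8, 34.45, 77.35, 72.7, 52.4 and 64.3 ppm in knockout, against 37.0, 26.9, 29.1, 28.8, 39.2 and 33.7 ppm in wild-type libraries. The Slc16a3 call was lost without any 1 of the 6 libraries and the Bnip3l call without A, B, C, D or F (limma, adjusted p up to 0.176). Vegfa leaned the other way, with a difference of -0.40 (SE 0.09, limma, adjusted p = 0.0837). In cluster 1 the knockout difference was lower by sign than in the mean of the other clusters for all 32 genes, with a median of -0.16 against 0.02 over all genes, but 0 of the 32 passed (limma, 0% of all 8125 genes; 17 of the 32 and 1042 of the 8125 at an unadjusted p under 0.05). For cluster 1, Bnip3 had the largest such difference, -0.80 (SE 0.22, limma, adjusted p = 0.230). Lower by sign can be a smaller rise or a larger fall. Bnip3l differed by 0.09 in cluster 1 and 0.53 in cluster 0, and Pkm by -0.26 and -0.08, none of them called.

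The same fit covered other genes of these pathways. Of 25 tested further low-oxygen targets 5 rose and 1 fell (median log2 difference 0.16). The largest rises were those of Anxa2, which encodes annexin A2, at 1.29 (lost without B or C, limma, adjusted p up to 0.0606) and of the glycogen synthase gene Gys1 at 0.97, and Angptl4 fell by 0.47 on the log2 scale. Of 14 tested further glycolysis genes 3 rose and 2 fell (median 0.15). They included the glucose transporter gene Slc2a8 at 0.72 and the mitochondrial glycerol phosphate dehydrogenase gene Gpd2 at 0.26 (lost without A, B, C, D or F, limma, adjusted p up to 0.126). Bpgm, whose enzyme diverts an intermediate of glycolysis to 2,3-bisphosphoglycerate, fell by 0.83, at 12.5, 16.1 and 14.1 ppm in D, E and F, against 25.2, 26.3 and 26.3 ppm in A, B and C. Eno3 fell by 0.37 (lost without A or B, limma, adjusted p up to 0.0605). Among 13 tested genes of the HIF machinery the coactivator gene Ep300 alone was called, at 0.22 (lost without A, B, C, D or F, limma, adjusted p up to 0.107).

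Neighbouring pathways had median differences below 0. Of 10 tested pentose phosphate genes 1 rose and 2 fell (median -0.10): Pgls by 0.19 (lost without B or C, limma, adjusted p up to 0.0607), and Rpia and Tkt, of the non-oxidative branch, at -0.31 and -0.27. Tkt was 340, 322 and 350 ppm in D, E and F, against 416, 404 and 401 ppm in A, B and C, with no overlap. Of 26 tested genes of pyruvate entry and the citrate cycle 2 rose and 5 fell (median -0.09), with Mdh1 at -0.27 and Sdhd at -0.23 as the largest falls and Dld at 0.30 and Idh2 at 0.22 as the rises (limma, adjusted p up to 0.104 and 0.132 when 1 library was left out). Of 22 tested mTORC1 regulators 1 rose and 2 fell (median -0.06), with Depdc5 at 0.29, Sesn1 at -0.33 and Lamtor1 at -0.24. Without B the Sesn1 call was lost and without A, B, C, D or F that of Depdc5 (limma, adjusted p up to 0.0543 and 0.138). These medians stand beside -0.01 over all 8475 genes and shares of 11% higher and 13.4% lower.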

How the data were processed

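Single-cell RNA was measured in 3 Cblb-/- and 3 wild-type samples. Per the submitters' processing notes, Cell Ranger 3.0.2, Seurat 3.0.0 and the mouse build mm10 were used, with no settings given. The deposited score values hold counts corrected by sctransform. Per the file headers, the authors adjusted raw UMI counts to a common depth, and the values are whole numbers of at least 0. The table also holds, as deposited by the authors, the raw UMI count, the mitochondrial percent, the genotype and the cluster of each cell. Doublet treatment is not given in the sources used here, and no cells were removed.

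The corrected counts of a library's cells were summed and scaled to ppm. Genes averaging 5 ppm or more entered the test, on log2(ppm + 1), so changes of low genes are understated, with limma 3.58.1 (R 4.3.3) and a trended prior variance. P-values were adjusted by Benjamini-Hochberg over all genes, with a threshold of 0.05. The test is not a count model because the values are corrected. Fits within clusters used the cells of 1 deposited cluster, and cluster 6 was left out because libraries held fewer than 50 of its cells. Shares of cells were compared by an exact permutation test. Tables were handled with Python 3.11.15, pandas 2.3.3, numpy 2.4.6 and scipy 1.17.1, and figures drawn with matplotlib 3.10.9. Gene positions are from the mm10 annotation of GENCODE, and promoters from RefSeq.

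The fit was tested on simulated data for the comparison over all cells: with 200 of 8475 genes changed, 87.6% of 1.5-fold and 96.4% of 2-fold changes were recovered, and 5.34% of calls were false. The simulated noise was independent between genes and had the same spread in both genotypes, so these shares do not measure the recovery of this set. Slc16a3, with SDs of 36.0 ppm in knockout and 9.26 ppm in wild-type libraries, was 2.12-fold higher and did not pass. The members and lists were chosen with earlier results of these data known. Every gene of the set called over all cells is named with its library values, 11 fixed genes are always named, and the others are given by range or in short clauses. Of each further list, the 2 largest rises and falls among called genes are named. Eno1 and Slc16a1 within clusters, and the other cluster and per-cell examples, were picked after their values were seen. Alternatives changed the scaling, pseudocount, filter, prior variance, cell selection and libraries.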

Additional observations from a re-analysis of the deposited data

Results flagged for a closer look

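The knockout difference of Slc16a3, the lactate exporter gene, was larger in cluster 2 than in the mean of the other clusters by 0.625 on the log2 scale (SE 0.08, limma on each library's own difference between clusters, adjusted p = 0.0371). For Bnip3l, a mitophagy receptor gene, it was larger by 0.6169 (SE 0.08, limma, adjusted p = 0.0372). Both are listed because the difference between clusters itself passed a test. The knockout mean of Bnip3l was 100 ppm in cluster 2 and 119 ppm in cluster 0, against wild-type means of 50.1 and 80.4 ppm. That of Slc16a3 was 77.35 and 75.8 ppm, against wild-type means of 29.1 and 37.0 ppm. Both calls depend on the set of libraries and on the filter for low values, and the part of depth or cell composition in them was not tested.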

How the results depend on the processing

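No paired analysis was possible because the table names its libraries by sequencing index and carries no replicate number, so the numbers 1 and 3 that both genotypes share in the labels cannot be tied to libraries. No result changed direction while called. Over all cells the higher calls among the 33 genes numbered 2 to 27 with 1 library left out. With equal weight to clusters 5 genes were called higher and 1 (Slc16a1) lower. Over all genes, 547 (mean of at least 20 ppm) and 1436 (no filter) were higher, against 929, and 396 to 1750 with 1 library left out, while 381 to 1396 were lower, against 1139. With 1 library left out, higher calls among the genes of the set numbered 2 to 28 in cluster 0, 2 to 8 in cluster 1, 5 to 24 in cluster 2, 0 to 18 in cluster 3, 2 to 8 in cluster 4 and 2 to 21 in cluster 5. Lower calls numbered 0 to 2 in cluster 1, 0 to 4 in cluster 4 and 0 to 1 in cluster 5. Without a trend in the prior variance higher calls numbered 3, 5, 1 and 1 in clusters 0, 2, 3 and 5. Cluster 0 also had 3 with a mean of at least 20 ppm and cluster 3 had 1 with no filter. In cluster 1 lower calls numbered 3 with median-of-ratios scaling and 1 with a pseudocount of 10 ppm, a minimum of 1 or 20 ppm, or no trend. In cluster 4 they numbered 0 with median-of-ratios scaling, no filter or no trend. Larger differences in cluster 2 than elsewhere numbered 5 with a pseudocount of 10 ppm, 4 with a minimum of 20 ppm, 0 with 1 ppm or no filter, and 0 to 1 with 1 library left out. Differences lower by sign than elsewhere numbered 0 to 5 in cluster 1 with 1 library left out, and 2 in cluster 4 with a pseudocount of 10 ppm. Shares over all genes are not given beside these counts within and between clusters. Over all cells the share of all genes called higher ran from 4.67% without C to 20.6% without E. The counts alone are thus no result about the set. The cause of the changes in these counts was not tested. Of single genes, 585 alternatives kept direction and side of the threshold, 36 lost and 24 gained a call. Of the shares of cells, 273 moved by less than 1 SD and 42 by more. A minimum of 20 cells gives the same 6 clusters, and unscaled means within clusters were not run. Limits are 3 libraries a genotype, corrected rather than raw counts, and genes near the 5 ppm minimum.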
